A study of Schizosaccharomyces pombe with 17 samples.

Results

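Small nucleolar RNAs (snoRNAs) are short nuclear RNAs that guide chemical modification of ribosomal RNA. The set described here holds every feature of the deposited expression table whose identifier has the snoRNA prefix of the fission yeast annotation, 53 of 7027 features. PolyA-selected RNA of Schizosaccharomyces pombe was sequenced in 14 libraries that form 7 groups of 2, and 3 libraries of RNA ligated at its 3′ end were not used here. The mutants affect Rrp6 and Dis3, the exonucleases of the nuclear RNA exosome. Wild type, rrp6Δ (rrp6 deleted) and rrp6-cat (an rrp6 mutant that the labels do not describe further) were grown at 32 °C in rich YES medium. The temperature-sensitive dis3-4 strain and the double mutant rrp6-cat dis3-4 were sampled at 23 °C and after 1 h at 30 °C. Wild type and the rrp6 single mutants were sampled only at 32 °C. Genotype and temperature cannot be told apart where a dis3-4 or double mutant group is set against any of them. Each genotype is 1 separately named strain, and the labels do not say whether the 2 libraries of a group are 2 cultures, so a p-value here reflects only how far these libraries spread, which may be technical.

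SnoRNAs fall into 2 families. Box C/D snoRNAs carry a C box and a D box and guide 2′-O-methylation, and box H/ACA snoRNAs fold into hairpins, end shortly after an ACA triplet and guide pseudouridylation. Mature snoRNAs carry no polyA tail. In budding yeast their 3′ ends are trimmed by the nuclear exosome, Rrp6 included, and unfinished or surplus forms can carry a short polyA tail. A polyA-selected library therefore reports the tailed fraction of a snoRNA and not its mature amount. A higher level in such a library cannot be told apart from a larger tailed share, and more RNA per cell cannot be told apart from more cells that hold it.

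The 53 snoRNAs separated by annotated length into 32 short ones of 47 to 112 bases and 21 long ones of 142 to 488 bases, with none between. RefSeq product names call 19 of the 21 long snoRNAs box H/ACA, and the other 2 are snR30 (U17) and sno16. Only 1 short snoRNA, snoZ30, is named box C/D there. The C box TGATGA, within the first 20 bases on the given strand, together with the D box CTGA within the last 15 bases, was found in 17 of the 32 short snoRNAs and in 0.0321% of 299326 genome windows of 84 bases. With up to 1 mismatch in the C box the pair was found in 27 of the 32 and in 0.391% of windows. The triplet ACA lay in the last 10 bases of 16 of the 21 long snoRNAs and of 12.6% of windows of 172 bases. Members were chosen by identifier and the classes split by annotated length, so the expression values defined neither. FPKM is scaled to length, however, and all 14 snoRNAs under the filter used below were short. Whether length itself has a part in differences between the classes was not tested.

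The sequences below, read by gene ID from the RefSeq annotation of build ASM294v3, stand for the patterns described further on. The deposited table was made on build ASM294v2 and holds no coordinates. The first 3 are long snoRNAs that were high in the mutants of both exonucleases. Capitals mark the ACA triplet near the 3′ end.
sno12: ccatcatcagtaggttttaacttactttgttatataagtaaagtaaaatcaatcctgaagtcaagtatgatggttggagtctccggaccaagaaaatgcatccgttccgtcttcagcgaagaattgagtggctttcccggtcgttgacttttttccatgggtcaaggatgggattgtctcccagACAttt
snR42: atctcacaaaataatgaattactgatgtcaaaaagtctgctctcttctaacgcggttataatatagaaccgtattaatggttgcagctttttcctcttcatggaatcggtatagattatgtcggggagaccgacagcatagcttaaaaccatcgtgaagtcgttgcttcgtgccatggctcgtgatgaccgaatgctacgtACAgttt
snR94: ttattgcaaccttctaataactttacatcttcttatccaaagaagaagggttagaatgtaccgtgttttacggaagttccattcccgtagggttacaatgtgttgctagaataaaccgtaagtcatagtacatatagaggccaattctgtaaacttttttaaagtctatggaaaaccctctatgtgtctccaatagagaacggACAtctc
The next 5 are short snoRNAs that were called in rrp6 mutants and not in dis3-4 against wild type. Capitals mark the C box near the 5′ end and the D box near the 3′ end, and snR88 has no C box within 1 mismatch in its first 20 bases.
snoR69b: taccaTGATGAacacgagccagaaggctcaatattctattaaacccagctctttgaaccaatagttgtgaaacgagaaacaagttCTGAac
snoR69: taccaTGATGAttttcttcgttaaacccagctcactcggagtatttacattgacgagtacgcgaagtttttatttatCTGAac
snR88: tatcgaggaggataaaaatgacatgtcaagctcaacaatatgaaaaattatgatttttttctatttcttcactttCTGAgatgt
snoR56: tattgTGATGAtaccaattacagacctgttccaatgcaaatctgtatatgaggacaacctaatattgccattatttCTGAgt
snoU14: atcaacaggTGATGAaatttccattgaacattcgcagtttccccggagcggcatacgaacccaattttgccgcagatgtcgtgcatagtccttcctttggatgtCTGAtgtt
The last 2 are other short snoRNAs: snr79 was called in every mutant group, and sno52, high in wild type replicate 1, was called in none.
snr79: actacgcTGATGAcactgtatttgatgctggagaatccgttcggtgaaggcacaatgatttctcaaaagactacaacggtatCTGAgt
sno52: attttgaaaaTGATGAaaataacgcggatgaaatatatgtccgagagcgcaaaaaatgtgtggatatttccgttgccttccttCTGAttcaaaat
snoR69 and snoR69b share a name stem and a longest run of 13 bases, which was also the longest run shared by any of the 1378 pairs of snoRNAs.

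Levels are given as FPKM, fragments scaled to the length of a feature and to the depth of its library, as the authors deposited them. FPKM multiplied by the annotated length gave whole multiples of 1 step in each library, within a tolerance of 0.05 fragments for 88.6% to 93.3% of low noncoding values, so numbers of fragments could be recovered. The libraries differed in depth. Wild type replicate 1 stood at 90.9% of the deepest library and wild type replicate 2 at 22.3%. The rrp6-cat libraries stood at 100% and 45.6%, and the rrp6Δ-labelled ones at 61.8% and 27.7%. The dis3-4 libraries stood at 42.0% and 25.9% at 23 °C and 32.8% and 24.0% at 30 °C. Those of the double mutant stood at 35.6% and 30.0% at 23 °C and 43.3% and 53.4% at 30 °C. Whether depth has a part in the values of 0 and the missing calls in dis3-4 was not tested. Of the 53 snoRNAs, 27 held undivided fragments (14 short, 13 long). Another 14 overlapped a longer noncoding RNA of the deposited table on the same strand. A further 5 had fractional fragments with no such partner found, and 7 short ones held at most 1 fragment in any library. snR46, among the 27, lies inside SPNCRNA.7474 on the same strand, which the deposited table does not hold. An FPKM of 0 is written here as listed at 0, since it can be a failed estimate. On the opposite strand 18 snoRNAs overlap another feature, and the sources used here do not say whether counting used the strand, so their values are less certain. They are sno16, sno20, snR10, snR36, snR90, snR92, snR96, snR97 and snR101 among the long, and snr79, snoR69, snoR02, sno52, snoR39a, snoR47, snoZ30, snoZ16 and snR51b among the short.

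A check of the targeted gene went against its label. In the rrp6Δ-labelled libraries, rrp6 stood at 179 and 128 FPKM, where wild type had 95.4 and 43.2 FPKM, a log2 difference of 1.22 (SE 0.36, adjusted p = 0.048, limma). Directions drawn from these libraries therefore rest on their label. In the libraries labelled rrp6-cat, rrp6 stood at 109 and 86.1 FPKM. Both replicates of wild type stood apart from each other, with a mean variance of log2 values of 0.663 over all features. That was the highest of the 7 groups. Over the snoRNAs this variance was 4.90 in wild type, 5.45 in rrp6-cat and 4.63 in the rrp6Δ-labelled libraries. In dis3-4 it was 3.37 at 23 °C and 2.00 at 30 °C, and in the double mutant 2.77 and 0.776. The fit shares 1 estimate of the spread over the 7 groups. Therefore p-values for comparisons with wild type or with an rrp6 single mutant can be too small.

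Of the 53 snoRNAs, 39 reached a mean of 1 FPKM over the 14 libraries and were tested, 18 short and all 21 long. The 14 under that level were all short: snoZ8, snoZ7, snoZ5, snoZ4, snoZ3, snR41, snR70, snR51b, snoZ16, snoR54b, snoR58, snoU24, snoU18 and snr62. A snoRNA passed this filter through whichever group held it, so the counts below are of the 39 and not of all snoRNAs. Every snoRNA called against wild type was higher in the mutant, at an adjusted p under 0.05 in limma over 6083 features. The libraries labelled rrp6Δ had 25 called higher (9 short, 16 long), where 9.81% of all features were called higher. rrp6-cat had 20 (5 short, 15 long) against 4.88% of all features. The dis3-4 groups had 16 each (1 short, 15 long), at 30 °C against 6.38% of all features and at 23 °C against 4.39%. The double mutant had 20 at each temperature, with 4 short and 16 long at 30 °C against 11.7% of all features, and 5 short and 15 long at 23 °C against 9.42%.

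Sorted one by one, 16 snoRNAs were called in both rrp6 single mutants and in dis3-4, 9 were called in an rrp6 single mutant and in neither dis3-4 group, and 0 were called in dis3-4 and in no rrp6 single mutant. In that last direction, the rrp6 single mutants, grown at 32 °C, were also tested directly against dis3-4 at 30 °C. There 0 snoRNAs were called lower in the rrp6Δ-labelled libraries than in dis3-4, where 1.04% of all features were. In rrp6-cat 0 were called lower, where 0.411% of all features were. At shares this low, a count of 0 is near the background, so it does not set the snoRNAs apart from other features. That count for rrp6-cat changed without its replicate 2, when snR30 (adjusted p = 0.029) and snR95 (adjusted p = 0.027) were called lower and 0 were called higher. rrp6-cat replicate 1, the library then left, held both near 0. Of the 16, 15 were long and 1 was short, snr79. Of the 9, 1 was long, snR101, and 8 were short. All comparisons with wild type share the same wild type libraries, so their calls are not independent of each other. The share of all features with each of these patterns is not given here. Whether the snoRNAs differ from other features in these patterns was therefore not tested. Over the 21 long snoRNAs, all of which were tested, the median log2 difference from wild type was 6.10 in the rrp6Δ-labelled libraries, 4.80 in rrp6-cat, and in dis3-4 5.38 at 30 °C and 5.15 at 23 °C. The medians over all 6083 features in the same order were 0.23, 0.18, -0.03 and 0.02.

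**Figure D1:**
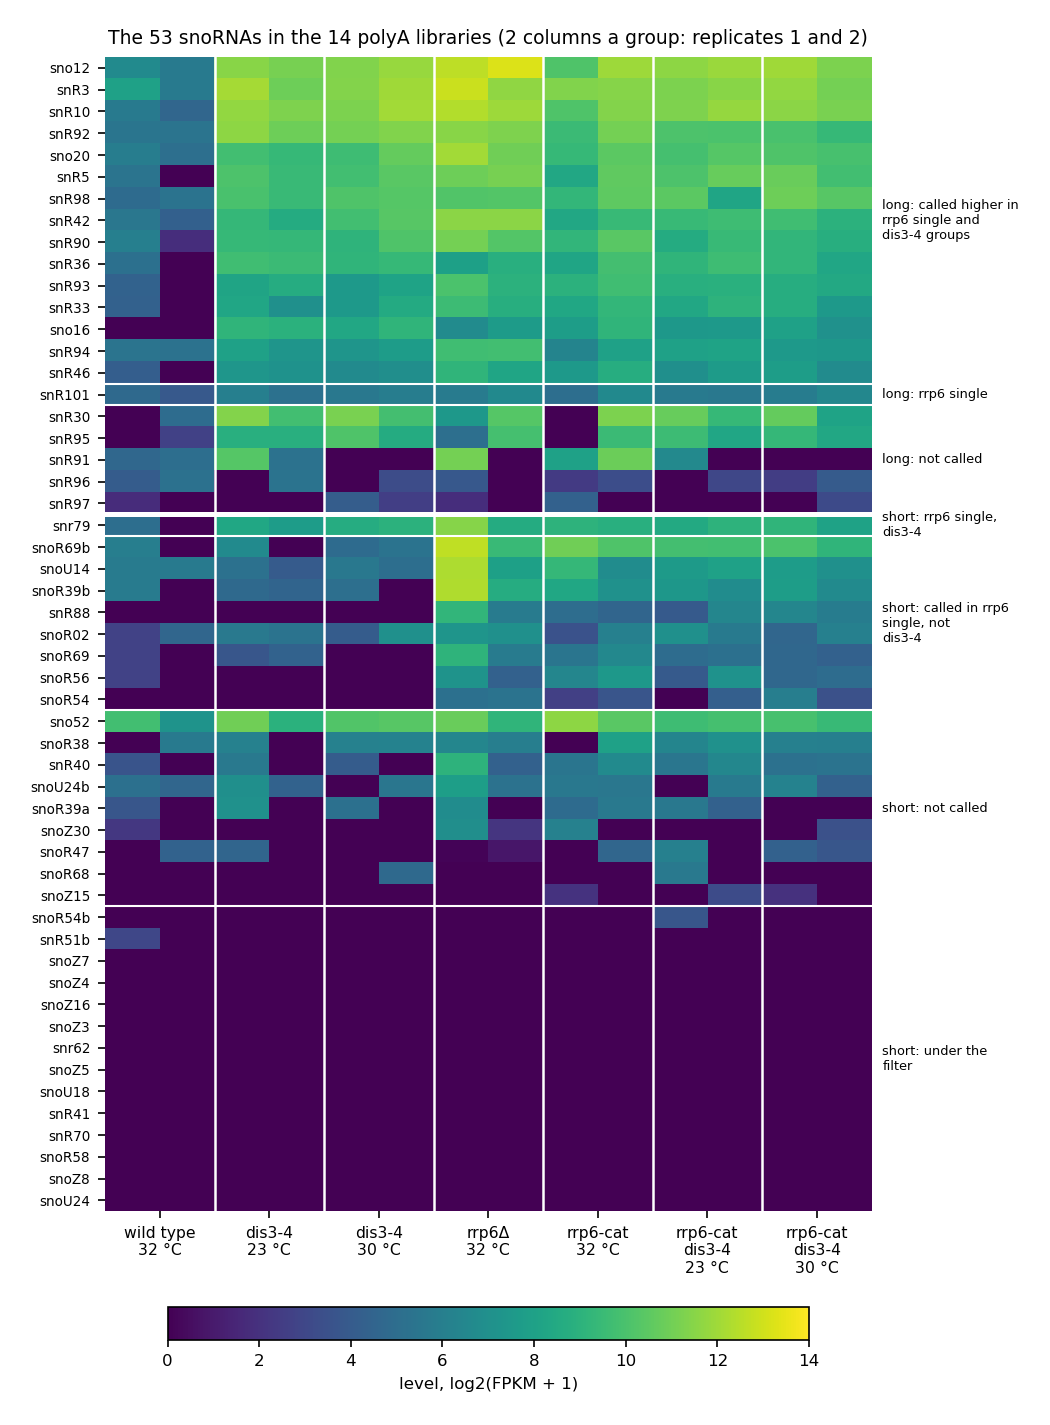
Level of each of the 53 snoRNAs (rows) in each of the 14 polyA libraries (columns, 2 a group, replicates 1 and 2 from left to right), as log2(FPKM + 1) in colour. Each of the 15 long snoRNAs at the top is darker in both wild type libraries than in its 12 mutant libraries. The 8 short ones called in rrp6 single mutants and not in dis3-4 stand in the block labelled so, where snoR02 reaches 129 FPKM in 1 dis3-4 library at 30 °C.

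The 15 long snoRNAs called in all 6 mutant groups were sno12, sno16, sno20, snR3, snR5, snR10, snR33, snR36, snR42, snR46, snR90, snR92, snR93, snR94 and snR98. RefSeq names 14 of them box H/ACA, the guides of pseudouridylation, sno16 being the exception. Their log2 differences ran from 4.41 to 8.33 (median 6.64) in the rrp6Δ-labelled libraries, from 1.84 to 8.47 (median 5.59) in rrp6-cat and from 2.21 to 8.77 (median 5.63) in dis3-4 at 30 °C. In the double mutant at 30 °C they ran from 2.13 to 7.59 (median 5.41). The lowest difference in each of these 4 comparisons was that of snR94. In wild type replicate 2, the shallower one, 6 of the 15 were listed at 0.

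sno12 stood at 103 and 51.3 FPKM in wild type, 6338 and 9680.3 FPKM in the rrp6Δ-labelled libraries and 1144 and 3918 FPKM in rrp6-cat. sno12 in dis3-4 was at 2904 and 2241 FPKM at 23 °C and 2579 and 3676 FPKM at 30 °C, and in the double mutant at 3125 and 3871 FPKM and 4031 and 2451 FPKM. Thus sno12, with the highest mean level of all snoRNAs per length, did not overlap between wild type and any mutant group. Its log2 difference was 6.73 (SE 0.52, adjusted p = 6.7e-06) in the rrp6Δ-labelled libraries and 5.38 (SE 0.52, adjusted p = 6.9e-05) in dis3-4 at 30 °C, by limma. snR10 stood at 54.3 and 23.3 FPKM in wild type, 5454 and 4009 FPKM in the rrp6Δ-labelled libraries and 1148 and 2733 FPKM in rrp6-cat. snR10 in dis3-4 was at 3409 and 2469 FPKM at 23 °C and 2405 and 4225 FPKM at 30 °C, and in the double mutant at 2469.9 and 3590.4 FPKM and 3074 and 2326 FPKM. Its lowest mutant library, rrp6-cat replicate 1, was still far above wild type, and its log2 difference was 5.59 (SE 0.47, adjusted p = 5e-05) in rrp6-cat. snR92 stood at 43.1 and 40.6 FPKM in wild type, 2929 and 2526 FPKM in the rrp6Δ-labelled libraries and 741 and 2172 FPKM in rrp6-cat. snR92 in dis3-4 was at 3172 and 1932 FPKM at 23 °C and 2174 and 2569 FPKM at 30 °C, and in the double mutant at 1098 and 1054 FPKM and 1023 and 672 FPKM. The 4 double mutant libraries of snR92 lay below all 4 dis3-4 libraries. The direct difference between the double mutant and dis3-4 at 30 °C was -1.51 (SE 0.42, adjusted p = 0.1), which was not called.

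snR3 stood at 255 and 54.2 FPKM in wild type, 7629 and 3286 FPKM in the rrp6Δ-labelled libraries and 2653 and 2862 FPKM in rrp6-cat. snR3 in dis3-4 was at 4480.5 and 1905 FPKM at 23 °C and 2676 and 4080.3 FPKM at 30 °C, and in the double mutant at 2415 and 2877 FPKM and 3431 and 2149.8 FPKM. snR3 lies inside SPNCRNA.1394 and its fragments are a share of that locus, described below, and its log2 difference was 5.40 (SE 0.64, adjusted p = 0.00018) in the rrp6Δ-labelled libraries and 4.80 (SE 0.64, adjusted p = 0.00069) in dis3-4 at 30 °C. sno20 stood at 61.0 and 34.0 FPKM in wild type, 4276 and 1978 FPKM in the rrp6Δ-labelled libraries and 658 and 1409 FPKM in rrp6-cat. sno20 in dis3-4 was at 859 and 653 FPKM at 23 °C and 814 and 1658 FPKM at 30 °C, and in the double mutant at 919.6 and 1268 FPKM and 1125 and 983 FPKM. The sno20 groups did not overlap wild type either, at a log2 difference of 5.96 (SE 0.47, adjusted p = 8.1e-06) in the rrp6Δ-labelled libraries and 4.64 (SE 0.47, adjusted p = 9.8e-05) in dis3-4 at 30 °C. snR5 stood at 40.3 and 0 FPKM in wild type, 1927 and 2208 FPKM in the rrp6Δ-labelled libraries and 336 and 1547 FPKM in rrp6-cat. snR5 in dis3-4 was at 1069.7 and 708 FPKM at 23 °C and 874 and 1347 FPKM at 30 °C, and in the double mutant at 1079.7 and 1729.7 FPKM and 1793 and 859 FPKM. With a wild type library at 0 and the other at 40.3 FPKM, the SE of snR5 was larger, at a log2 difference of 8.33 (SE 1.25, adjusted p = 0.001) in the rrp6Δ-labelled libraries and 7.40 (SE 1.25, adjusted p = 0.0038) in dis3-4 at 30 °C.

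snR98 stood at 28.9 and 38.5 FPKM in wild type, 1163 and 1225 FPKM in the rrp6Δ-labelled libraries and 619 and 1476 FPKM in rrp6-cat. snR98 in dis3-4 was at 1000.1 and 718 FPKM at 23 °C and 1146 and 1255 FPKM at 30 °C, and in the double mutant at 1408 and 294 FPKM and 1959 and 1303 FPKM. Replicates 1 and 2 of the double mutant at 23 °C lay far apart for snR98, which shares its locus with SPNCRNA.814. snR42 stood at 45.9 and 18.7 FPKM in wild type, 2999 and 3061 FPKM in the rrp6Δ-labelled libraries and 334 and 686 FPKM in rrp6-cat. snR42 in dis3-4 was at 651 and 395 FPKM at 23 °C and 876 and 1327 FPKM at 30 °C, and in the double mutant at 702 and 806 FPKM and 839 and 516 FPKM. snR42 was higher in both rrp6Δ-labelled libraries than in every other library. snR94 stood at 40.9 and 37.1 FPKM in wild type, 845 and 851 FPKM in the rrp6Δ-labelled libraries and 78.5 and 258 FPKM in rrp6-cat. snR94 in dis3-4 was at 256 and 159.6 FPKM at 23 °C and 157 and 215 FPKM at 30 °C, and in the double mutant at 261 and 275 FPKM and 181 and 166 FPKM. snR94, outside the 8 most abundant of this set and named after its values were seen, also peaked in both rrp6Δ-labelled libraries.

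Direct comparison of the rrp6 mutants with each other gave 2 snoRNAs called higher in the rrp6Δ-labelled libraries than in rrp6-cat, where 1.3% of all features were called higher. They were snR42, with a log2 difference of 2.66 (SE 0.45, adjusted p = 0.012), and snR94, with 2.57 (SE 0.43, adjusted p = 0.012). Both calls depended on single libraries: snR42 kept its call only without rrp6-cat replicate 2, and snR94 lost it without either library labelled rrp6Δ, with adjusted p up to 0.11 for each. Against dis3-4 at 30 °C, snR94 was the only long snoRNA called in the rrp6Δ-labelled libraries, with an adjusted p of 0.016, and that call was lost without any 1 of the 4 libraries. Over the 21 long snoRNAs the median log2 difference was 0.60 between the rrp6Δ-labelled libraries and dis3-4 at 30 °C, and -0.30 between rrp6-cat and dis3-4 at 30 °C, where 0 long snoRNAs were called and 2 had an unadjusted p under 0.05. The medians over all features in these comparisons were 0.25 and 0.20.

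snR101 was the 1 long snoRNA called in rrp6 mutants without a call in dis3-4. It stood at 26.2 and 14.3 FPKM in wild type, 56.6 and 97.6 FPKM in the rrp6Δ-labelled libraries and 31.8 and 97.5 FPKM in rrp6-cat. In dis3-4 it stood at 64.3 and 36.8 FPKM at 23 °C and 48.4 and 59.5 FPKM at 30 °C, and in the double mutant at 53.5 and 47.6 FPKM and 58.8 and 89.3 FPKM. All mutant libraries lay above both wild type libraries. It was called in the rrp6Δ-labelled libraries, at a log2 difference of 1.89 (SE 0.50, adjusted p = 0.029), and in the double mutant at 30 °C, at 1.85 (SE 0.50, adjusted p = 0.029). The difference in dis3-4 at 30 °C was 1.42 (SE 0.50, adjusted p = 0.11), and the direct difference between the rrp6Δ-labelled libraries and dis3-4 at 30 °C was 0.46 (SE 0.50, adjusted p = 0.64), so snR101 was not shown to differ between these mutants. Its call in the rrp6Δ-labelled libraries was kept only without wild type replicate 1.

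The 8 short snoRNAs called in an rrp6 single mutant and in neither dis3-4 group were snoR69b, snoU14, snoR39b, snR88, snoR02, snoR69, snoR56 and snoR54. snoU14 carries the name of U14, which in budding yeast is needed for processing of the small subunit ribosomal RNA. They were called in different groups. snoR69b and snR88 were called in the rrp6Δ-labelled libraries, in rrp6-cat and in the double mutant at both temperatures. snoR56 and snoR69 were called in the rrp6Δ-labelled libraries, in rrp6-cat and in the double mutant at 23 °C, and snoR54 in the rrp6Δ-labelled libraries and in the double mutant at 30 °C. snoU14, snoR39b and snoR02 were called in the rrp6Δ-labelled libraries alone among the 6 groups.

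snoR69b was the most abundant of these per length. snoR69b stood at 62.9 and 0 FPKM in wild type, and in dis3-4 at 102 and 0 FPKM at 23 °C and 29.0 and 39.7 FPKM at 30 °C. It stood at 6362 and 706 FPKM in the rrp6Δ-labelled libraries, 1973 and 1139 FPKM in rrp6-cat, and 909 and 873 FPKM and 1058 and 563 FPKM in the double mutant at 23 °C and 30 °C. Each of the 8 libraries with an rrp6 mutation was above all 6 others. The log2 difference from wild type was 8.05 (SE 2.00, adjusted p = 0.021) in the rrp6Δ-labelled libraries, 7.55 (SE 2.00, adjusted p = 0.049) in rrp6-cat and 2.13 (SE 2.00, adjusted p = 0.58) in dis3-4 at 30 °C. In fragments, 414 and 109 in rrp6-cat against 2 and 2 in dis3-4 at 30 °C gave a ratio per scaled depth of 51.1 (95% counting interval 19.8 to 188), an interval that covers counting error only. By limma the direct difference was 5.42 (SE 2.00, adjusted p = 0.25), which was not called at this spread between replicates, and the 4 calls against wild type were each kept only without wild type replicate 1.

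snR88 stood at 0 and 0 FPKM in wild type, and in dis3-4 at 0 and 0 FPKM at 23 °C and 0 and 0 FPKM at 30 °C. It stood at 585 and 56.0 FPKM in the rrp6Δ-labelled libraries, 31.0 and 22.6 FPKM in rrp6-cat, and 14.5 and 86.0 FPKM and 83.5 and 58.1 FPKM in the double mutant at 23 °C and 30 °C. No fragment of snR88 was listed in any of the 6 libraries without an rrp6 mutation, while all 8 with one held some. Its fragments were 70 and 3 in the rrp6Δ-labelled libraries, 6 and 2 in rrp6-cat and 7 and 6 in the double mutant at 30 °C. Against a floor of 3 fragments over the group, the rrp6Δ-labelled libraries were at least 30.8-fold higher than wild type and at least 15.5-fold higher than dis3-4 at 30 °C. Of the 73 fragments behind these bounds, replicate 1 held all but 3, and without it no fold can be given. The adjusted p was 0.00025 and 0.0011 for these comparisons by limma, and these calls were kept whichever library was left out. However, snR88 passed the filter only through libraries with an rrp6 mutation, and its 6 libraries at 0 have no spread and lower the SE. The p-values and the kept calls are therefore no further support for its difference. snoR69 stood at 5.75 and 0 FPKM in wild type, and in dis3-4 at 12.4 and 20.2 FPKM at 23 °C and 0 and 0 FPKM at 30 °C. It stood at 541 and 56.7 FPKM in the rrp6Δ-labelled libraries, 41.8 and 91.6 FPKM in rrp6-cat, and 29.3 and 34.8 FPKM and 24.2 and 19.6 FPKM in the double mutant at 23 °C and 30 °C. The log2 difference of snoR69 was 6.09 (SE 0.96, adjusted p = 0.0014) in the rrp6Δ-labelled libraries and 4.60 (SE 0.96, adjusted p = 0.016) in rrp6-cat. Against dis3-4 at 30 °C, the rrp6Δ-labelled libraries were at least 14.2-fold and rrp6-cat at least 2.08-fold higher, with adjusted p of 0.0013 and 0.011. Its fragments in the rrp6Δ-labelled libraries were 64 and 3, so the first of these bounds also rests on replicate 1. The second rests on 8 and 8 fragments in rrp6-cat, whose own counting error it leaves out. The dis3-4 libraries at 30 °C, both at 0, have no spread and lower the SE behind these p-values.

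snoR56 stood at 5.82 and 0 FPKM in wild type, and in dis3-4 at 0 and 0 FPKM at 23 °C and 0 and 0 FPKM at 30 °C. It stood at 145 and 19.1 FPKM in the rrp6Δ-labelled libraries, 84.6 and 174 FPKM in rrp6-cat, and 14.8 and 141 FPKM and 24.5 and 29.7 FPKM in the double mutant at 23 °C and 30 °C. snoR56 was the 1 snoRNA of the 8 whose highest mean was in rrp6-cat, where its log2 difference from wild type was 5.55 (SE 1.12, adjusted p = 0.013). rrp6-cat was at least 4.04-fold higher than dis3-4 at 30 °C (adjusted p = 0.011). Like snR88, snoR56 passed the filter only through libraries with an rrp6 mutation. Its dis3-4 libraries, all at 0, have no spread and lower the SE. The p-values of snoR56 are therefore no further support for its difference. snoU14 stood at 55.4 and 52.2 FPKM in wild type, and in dis3-4 at 36.9 and 15.0 FPKM at 23 °C and 47.2 and 32.2 FPKM at 30 °C. It stood at 5031 and 252 FPKM in the rrp6Δ-labelled libraries, 643 and 110.4 FPKM in rrp6-cat, and 196 and 258 FPKM and 215 and 131 FPKM in the double mutant at 23 °C and 30 °C. Its log2 difference was 4.36 (SE 1.10, adjusted p = 0.023) in the rrp6Δ-labelled libraries and -0.45 (SE 1.10, adjusted p = 0.86) in dis3-4 at 30 °C, and the direct difference between them was 4.82 (SE 1.10, adjusted p = 0.033). snoR39b stood at 55.0 and 0 FPKM in wild type, and in dis3-4 at 26.5 and 21.5 FPKM at 23 °C and 33.9 and 0 FPKM at 30 °C. It stood at 5173 and 402 FPKM in the rrp6Δ-labelled libraries, 323 and 134 FPKM in rrp6-cat, and 172 and 111 FPKM and 218 and 104 FPKM in the double mutant at 23 °C and 30 °C. The direct difference of snoR39b between the rrp6Δ-labelled libraries and dis3-4 at 30 °C was 7.93 (SE 1.82, adjusted p = 0.034).

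snoR54 stood at 0 and 0 FPKM in wild type, and in dis3-4 at 0 and 0 FPKM at 23 °C and 0 and 0 FPKM at 30 °C. It stood at 34.7 and 38.7 FPKM in the rrp6Δ-labelled libraries, 5.36 and 11.7 FPKM in rrp6-cat, and 0 and 17.8 FPKM and 61.9 and 10.0 FPKM in the double mutant at 23 °C and 30 °C. These values rest on 15 fragments over all 14 libraries, and the calls of snoR54 in the rrp6Δ-labelled libraries were lost without either of them. Like snR88, snoR54 passed the filter only through libraries with an rrp6 mutation, and its groups at 0 have no spread and lower the SE. snoR02 stood at 5.68 and 23.2 FPKM in wild type, and in dis3-4 at 49.2 and 39.9 FPKM at 23 °C and 15.7 and 129 FPKM at 30 °C. It stood at 159 and 131 FPKM in the rrp6Δ-labelled libraries, 10.3 and 67.9 FPKM in rrp6-cat, and 130.4 and 51.6 FPKM and 23.9 and 67.7 FPKM in the double mutant at 23 °C and 30 °C. The log2 difference of snoR02 was 3.51 (SE 1.01, adjusted p = 0.042) in the rrp6Δ-labelled libraries and 1.87 (SE 1.01, adjusted p = 0.3) in dis3-4 at 30 °C, and its direct difference between them was 1.64 (SE 1.01, adjusted p = 0.41), so it was not shown to differ between these mutants.

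Tested directly against dis3-4 at 30 °C, 7 snoRNAs were higher in the rrp6Δ-labelled libraries, where 2.94% of all features were called higher: snoR56, snoR69, snoU14, snoR54, snoR39b and snR88, all short, and snR94. In rrp6-cat against dis3-4 at 30 °C there were 3, snoR56, snoR69 and snR88, where 0.806% of all features were called higher. In the double mutant against dis3-4 at 30 °C there were 2, snoR69 and snR88, where 1.51% were called higher. These last 2 rest on few fragments: 2 and 2 for snoR69 and 7 and 6 for snR88 in the double mutant, and none in dis3-4 at 30 °C. For snoR69 no fold is given, since its total of 4 stands against a floor of 3 fragments at different depths. The 3 comparisons share the dis3-4 libraries. snoR56, snoR54 and snR88 passed the filter only through libraries with an rrp6 mutation, so their calls here are no further support. Without any 1 library, snoR69 and snR88 kept their call in the rrp6Δ-labelled libraries in every fit. There snoU14 and snoR56 kept it only without replicate 2 labelled rrp6Δ, snoR39b only without dis3-4 replicate 1, and snoR54 in no fit. Each of the 3 calls in rrp6-cat was lost whichever of its 4 libraries was left out, and 0 snoRNAs were then called higher. In the double mutant, snoR69 lost its call in all 4 such fits, and snR88 kept it only without dis3-4 replicate 1.

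**Figure D2:**
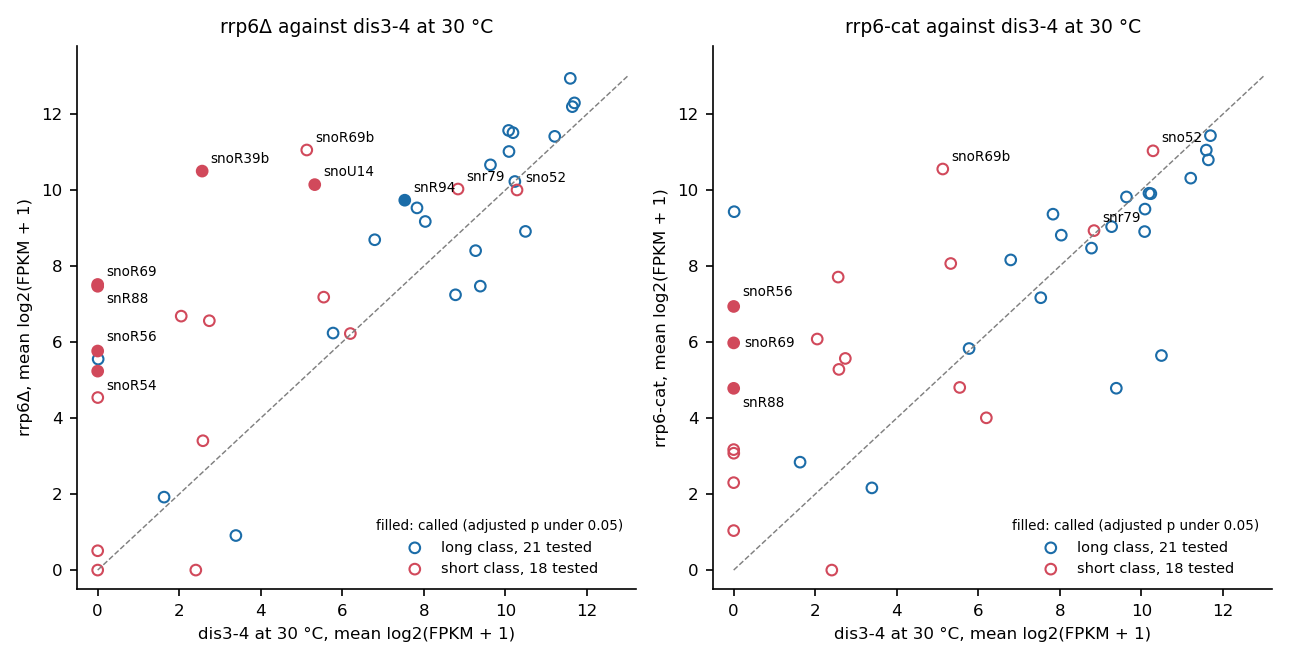
Mean log2(FPKM + 1) of the 39 tested snoRNAs in dis3-4 at 30 °C (horizontal) against the rrp6Δ-labelled libraries (left, vertical) and rrp6-cat (right, vertical), with short snoRNAs in red and long ones in blue. Filled points passed the direct test and the dashed line marks equal levels; filled points in red and blue are the snoRNAs named in the text, and long ones lie on both sides of the line.

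Sums over the undivided snoRNAs give the 2 classes library by library. The sets were drawn up after the values were seen and are given without a test. The sum over the 13 undivided long snoRNAs, in depth-scaled fragments (FPKM times kilobases), was 94.0 and 48.7 in wild type, 4763 and 4630.3 in the rrp6Δ-labelled libraries, 975 and 2631 in rrp6-cat and 1860.0 and 2813 in dis3-4 at 30 °C. The sum over all 14 undivided short snoRNAs was 108 and 27.3 in wild type, 2159 and 248 in the rrp6Δ-labelled libraries and 647 and 363 in rrp6-cat. In dis3-4 that sum was 272 and 75.4 at 23 °C and 169 and 197 at 30 °C, and in the double mutant 254 and 302 and 313 and 189. Over all 14, the dis3-4 libraries therefore overlapped those with an rrp6 mutation. With sno52 and snr79 left out, the sum over the other 12 was 22.4 and 13.6 in wild type, 1745 and 158 in the rrp6Δ-labelled libraries and 301 and 192 in rrp6-cat. In dis3-4 it was 50.6 and 10.1 at 23 °C and 21.1 and 27.1 at 30 °C, and in the double mutant 147 and 168 and 169 and 99.2. For these 12, the highest dis3-4 library lay below the lowest library with an rrp6 mutation, a separation that follows from which 2 were left out and was absent for the 14. The short sum also differed between the 2 rrp6Δ-labelled libraries, replicate 1 being the higher. Over the 10 short snoRNAs with at least 20 fragments in these 2 libraries the median log2 ratio of replicate 1 to replicate 2 was 3.20, and over the 12 such long snoRNAs it was 0.10. Whether library depth or length selection has a part in this gap was not tested.

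**Figure D3:**
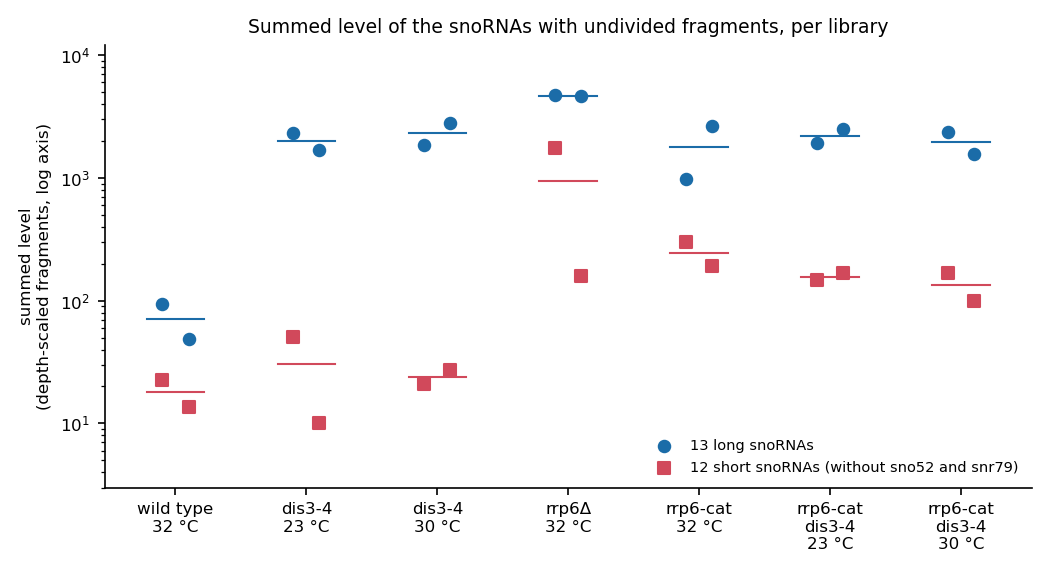
Summed level of undivided snoRNAs in each library, in depth-scaled fragments on a log axis, for the 13 long (circles) and for the 12 short ones without sno52 and snr79 (squares), with group means as lines. The long sum is lowest in the 2 wild type libraries, whereas the sum of the 12 short ones is lower in wild type and in the 4 dis3-4 libraries than in any library with an rrp6 mutation, which does not hold for all 14 short ones.

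snr79 was the 1 short snoRNA called in all 6 mutant groups, and it is named with its values although outside the 8 most abundant of its set. snr79 stood at 32.5 and 0 FPKM in wild type, and in dis3-4 at 317 and 209.5 FPKM at 23 °C and 405 and 513 FPKM at 30 °C. It stood at 2759 and 392 FPKM in the rrp6Δ-labelled libraries, 522 and 454 FPKM in rrp6-cat, and 359 and 525 FPKM and 569.6 and 268 FPKM in the double mutant at 23 °C and 30 °C. All 12 mutant libraries lay above both wild type libraries. The log2 difference was 7.49 (SE 1.25, adjusted p = 0.002) in the rrp6Δ-labelled libraries, 6.40 (SE 1.25, adjusted p = 0.011) in rrp6-cat, 6.30 (SE 1.25, adjusted p = 0.0084) in dis3-4 at 30 °C and 5.48 (SE 1.25, adjusted p = 0.026) at 23 °C. The direct difference between rrp6-cat and dis3-4 at 30 °C was 0.09 (SE 1.25, adjusted p = 0.99). Its call at 23 °C was kept only without wild type replicate 1.

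**Figure D4:**
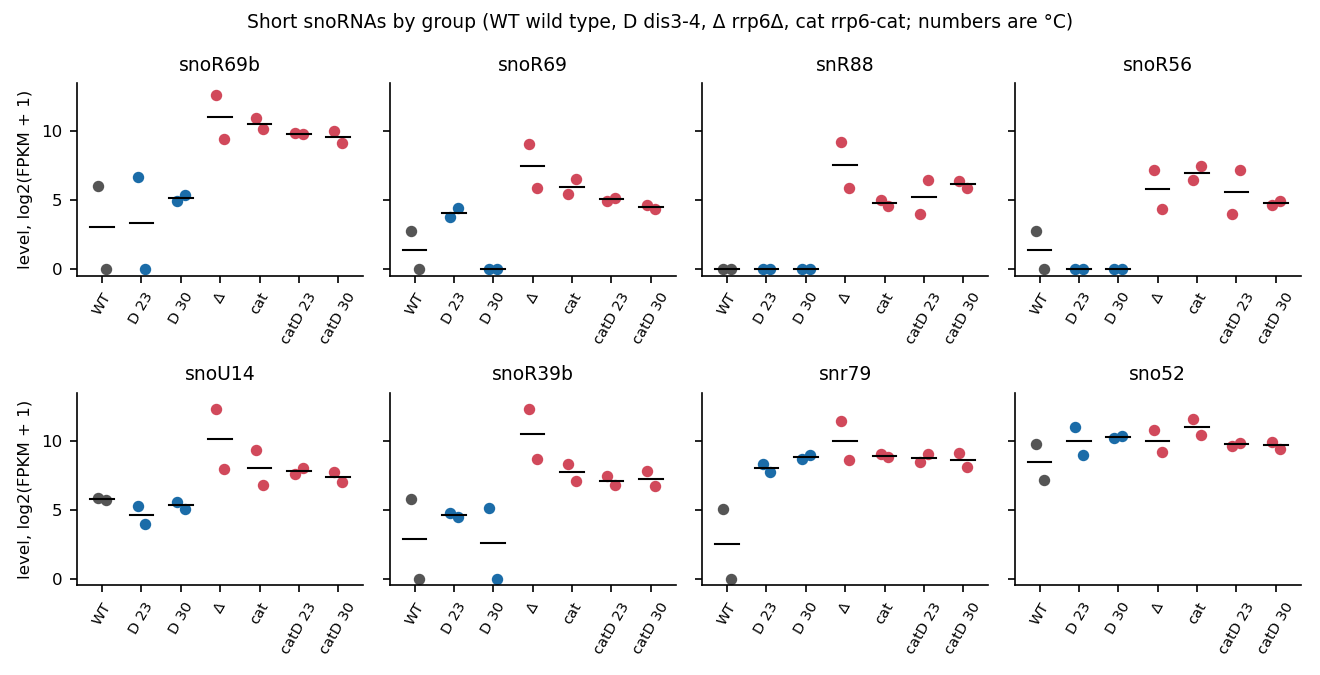
Level as log2(FPKM + 1) of 8 named short snoRNAs, 1 panel each, in the 14 libraries (points) with group means (lines), wild type in grey, dis3-4 in blue and groups with an rrp6 mutation in red. snr79 is high in every mutant library and sno52 in all libraries, and in 5 of the other panels every red point lies above every blue one. The exception is snoR69, where double mutant replicate 2 at 30 °C (19.6 FPKM) lies below dis3-4 replicate 2 at 23 °C (20.2 FPKM).

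Several calls against wild type rested on single libraries. In the rrp6Δ-labelled libraries, the calls of snoU14, snoR39b and snoR56 were lost without wild type replicate 2 or without replicate 1 labelled rrp6Δ, and snoR02 kept its call only without wild type replicate 2, with adjusted p up to 0.2 for snoR56. Among the long ones, 14 of 15 kept the call there in every fit, and snR36 lost it without replicate 2 (adjusted p = 0.073). In rrp6-cat, replicate 2 decided the calls of snR5, snR36, snR90 and snR94, and without it snoR56 and snoR69 also lost theirs. The calls of snR94, snoR56 and snoR69 in rrp6-cat were lost as well without the second wild type library. snR88 kept its call in rrp6-cat only without wild type replicate 1, and snr79 lost its call there without either rrp6-cat library. In dis3-4 at 30 °C, replicate 2 decided the calls of snR33, snR46, snR90, snR94 and snr79, with adjusted p from 0.055 to 0.087 without it.

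Of the 39 tested snoRNAs, 14 were called in no mutant group: snR30, snR91, snR95, snR96 and snR97 among the long, and snR40, snoU24b, snoR38, snoZ15, snoZ30, snoR47, snoR68, sno52 and snoR39a among the short. sno52 stood at 874 and 144 FPKM in wild type, and in dis3-4 at 2034 and 494 FPKM at 23 °C and 1182 and 1311 FPKM at 30 °C. It stood at 1809.8 and 578 FPKM in the rrp6Δ-labelled libraries, 3159.7 and 1381 FPKM in rrp6-cat, and 794 and 928 FPKM and 981 and 693 FPKM in the double mutant at 23 °C and 30 °C. sno52 was the most abundant of the 14, and its wild type replicate 1 lay within the range of the mutants. Its log2 differences from wild type ran from 1.22 to 2.55, with the lowest adjusted p in rrp6-cat, 0.11.

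snR30 stood at 0.000775 and 29.8 FPKM in wild type, and in dis3-4 at 2750.4 and 860.1 FPKM at 23 °C and 2329 and 886 FPKM at 30 °C. It stood at 179 and 1285 FPKM in the rrp6Δ-labelled libraries, 0.0198 and 2451 FPKM in rrp6-cat, and 1689 and 675 FPKM and 1646 and 279 FPKM in the double mutant at 23 °C and 30 °C. snR30 is the snoRNA U17, which is needed for cleavage of the ribosomal RNA precursor rather than for a modification. Its values near 0 in wild type replicate 1 and rrp6-cat replicate 1 contrast with the other mutant libraries, and its fragments were not whole numbers. The log2 difference in dis3-4 at 30 °C was 8.02 (SE 2.72, adjusted p = 0.1). snR95 stood at 0.00807 and 5.64 FPKM in wild type, and in dis3-4 at 462 and 452 FPKM at 23 °C and 1131 and 392 FPKM at 30 °C. It stood at 33.0 and 922 FPKM in the rrp6Δ-labelled libraries, 0.00384 and 755 FPKM in rrp6-cat, and 781 and 317 FPKM and 636 and 331 FPKM in the double mutant at 23 °C and 30 °C. The 2 libraries near 0 were the same as for snR30, and the log2 difference in dis3-4 at 30 °C was 8.01 (SE 2.33, adjusted p = 0.055).

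snoR38 stood at 0 and 52.7 FPKM in wild type, and in dis3-4 at 69.8 and 0 FPKM at 23 °C and 71.4 and 73.2 FPKM at 30 °C. It stood at 85.3 and 63.6 FPKM in the rrp6Δ-labelled libraries, 0 and 257 FPKM in rrp6-cat, and 82.2 and 137 FPKM and 67.7 and 65.9 FPKM in the double mutant at 23 °C and 30 °C. snoR38 was listed at 0 in 1 library each of wild type, rrp6-cat and dis3-4 at 23 °C, so its groups overlap. snR40 stood at 11.6 and 0 FPKM in wild type, and in dis3-4 at 50.4 and 0 FPKM at 23 °C and 16.1 and 0 FPKM at 30 °C. It stood at 522 and 19.1 FPKM in the rrp6Δ-labelled libraries, 42.3 and 104 FPKM in rrp6-cat, and 44.5 and 88.1 FPKM and 36.7 and 39.6 FPKM in the double mutant at 23 °C and 30 °C. The groups of snR40 overlapped, since replicate 2 labelled rrp6Δ lay below replicate 1 of dis3-4 at 23 °C, with a log2 difference of 4.85 (SE 1.95, adjusted p = 0.14) in the rrp6Δ-labelled libraries and 0.22 (SE 1.95, adjusted p = 0.97) in dis3-4 at 30 °C, neither called. The remaining short uncalled snoRNAs had means of at most 53.5 FPKM, that of snoU24b.

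Fragments of 14 snoRNAs were divided between the snoRNA and a longer noncoding RNA that overlaps it on the same strand, at 8 loci. snR91 lies only partly inside its partner, and the others lie inside theirs. The division was uneven. The locus of snR91 and SPNCRNA.901 held 39 and 7 fragments in wild type, 1620 and 1112 in the rrp6Δ-labelled libraries, 854 and 1021 in rrp6-cat and 674 and 536 in dis3-4 at 30 °C. Of these, snR91 was given 445 in replicate 1 labelled rrp6Δ and fewer than 1 in replicate 2, and fewer than 1 in both dis3-4 libraries at 30 °C. snR91 itself stood at 2171 and 0.0117 FPKM in the rrp6Δ-labelled libraries against 24.2 and 33.0 FPKM in wild type and was not called, with log2 differences of 0.68 there and -4.86 in dis3-4 at 30 °C. Summed over the locus, the log2 difference was 6.44 (SE 0.43, adjusted p = 3e-06) in the rrp6Δ-labelled libraries, 5.21 (SE 0.43, adjusted p = 4.7e-05) in rrp6-cat and 5.84 (SE 0.43, adjusted p = 9.9e-06) in dis3-4 at 30 °C. Summing was chosen after the data were seen.

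**Figure D5:**
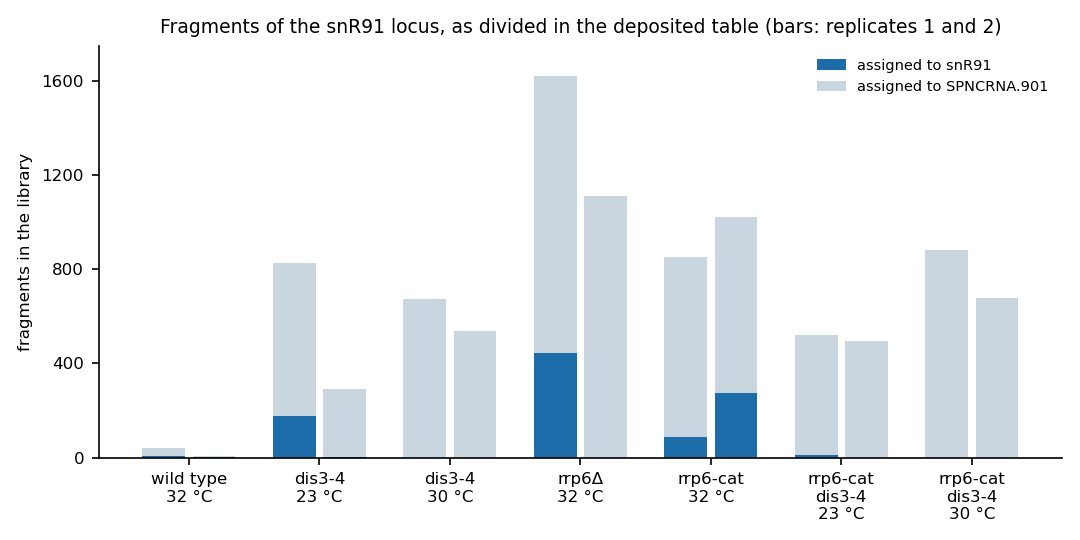
Fragments of the snR91 locus in each library as divided in the deposited table, dark for snR91 and light for SPNCRNA.901, with 2 bars a group for replicates 1 and 2. The totals run from 293 to 1620 fragments in the mutant libraries and are 39 and 7 in wild type, while the part given to snR91 is near 0 in several mutant libraries.

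With loci summed, 5 of the 8 were called higher in all 6 mutant groups: those of snR3 (SPNCRNA.1394), snR91 (SPNCRNA.901), snR98 (SPNCRNA.814), snoZ30 (SPNCRNA.1483) and snoR68 (SPNCRNA.1650). Among all features in that fit, 9.79% were called higher in the rrp6Δ-labelled libraries, 4.87% in rrp6-cat, 6.35% and 4.36% in dis3-4 at 30 °C and 23 °C, and 11.7% and 9.41% in the double mutant. Locus totals measure the longer RNA as well as the snoRNA, and at the loci of short snoRNAs nearly all fragments were assigned to the longer RNA. The SPNCRNA.659 locus, which holds snoZ8, snoZ7, snoZ5, snoZ4 and snoZ3, had 114 and 19 fragments in wild type, 780 and 125 in the rrp6Δ-labelled libraries, 222 and 161 in rrp6-cat and 59 and 55 in dis3-4 at 30 °C. Its log2 difference was 2.82 (SE 0.41, adjusted p = 0.00081) in the rrp6Δ-labelled libraries, 1.40 (SE 0.41, adjusted p = 0.075) in rrp6-cat and 0.94 (SE 0.41, adjusted p = 0.2) in dis3-4 at 30 °C. The direct difference between the rrp6Δ-labelled libraries and dis3-4 at 30 °C was 1.88 (SE 0.41, adjusted p = 0.029). The SPNCRNA.723 locus, which holds snR41, snR70 and snR51b, had 31 and 7 fragments in wild type, 466 and 122 in the rrp6Δ-labelled libraries, 40 and 115 in rrp6-cat and 66 and 140 in dis3-4 at 30 °C. Its log2 difference was 4.06 (SE 0.69, adjusted p = 0.0024) in the rrp6Δ-labelled libraries and 3.31 (SE 0.69, adjusted p = 0.011) in dis3-4 at 30 °C. It was not called in rrp6-cat, at 1.57 (SE 0.69, adjusted p = 0.27), or in dis3-4 at 23 °C, at 2.52 (SE 0.69, adjusted p = 0.061). The SPNCRNA.1483 locus was higher than in dis3-4 at 30 °C in the rrp6Δ-labelled libraries, at 1.39 (SE 0.27, adjusted p = 0.016), and in rrp6-cat, at 1.42 (SE 0.27, adjusted p = 0.029). The snR97 locus (SPNCRNA.617) was called in no group.

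The annotation places 10 short snoRNAs in introns of other genes: snoU24b, snoR38, snoR58, snoU24, snoR54, snoZ15, snoR39b, snoU18, snoR47 and snoR39a. The 2 called among them were snoR54 and snoR39b. Their hosts, gua1 and rpl701, were called in no mutant group against wild type. Nor were cpc2, ade4 and pfd1, the hosts of snoU24b, snoR58 and snoZ15. In the rrp6Δ-labelled libraries the host of snoR39b had a log2 difference of 0.00 (SE 0.24, adjusted p = 0.999) and the host of snoR54 one of -0.24 (SE 0.28, adjusted p = 0.65). Other hosts were called. ero11 (host of snoU18) was higher in every mutant group, at 1.41 (SE 0.22) in the rrp6Δ-labelled libraries. spt20 (snoU24) was higher there and in the double mutant at both temperatures. fta3 (snoR47) was higher in both dis3-4 groups and in the double mutant at 30 °C, where rlp7 (snoR39a) was also higher. SPAC29A4.02C (snoR38) was lower in the rrp6Δ-labelled libraries and higher in rrp6-cat.

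Genes for proteins that bind and mature snoRNAs were counted from lists. The 4 core proteins of box C/D particles (fib1, the methyltransferase, nop56, nop58 and snu13) were all tested, and only snu13 was called in any of the 14 comparisons, at a log2 difference of 0.77 (SE 0.23, adjusted p = 0.044) in the double mutant at 30 °C. Of the 4 core proteins of box H/ACA particles, 3 were tested (nhp2, gar1 and nop10) and the pseudouridine synthase cbf5 lay under the filter. nop10 was higher in rrp6-cat, at 1.03 (SE 0.24, adjusted p = 0.028), in dis3-4 at 23 °C, at 1.13 (SE 0.24, adjusted p = 0.018), and in the double mutant at both temperatures, and gar1 was higher in the double mutant than in dis3-4 at 30 °C, at 1.56 (SE 0.32, adjusted p = 0.036). Of the 6 assembly factors listed, 3 were tested and 0 were called, where 2 lay under the filter and pih1 was not matched. Of the 11 genes listed for 3′ end processing and polyadenylation, 11 were tested. The numbers called higher against wild type were 1 in the rrp6Δ-labelled libraries, 0 in rrp6-cat, 0 and 1 in dis3-4 at 30 °C and 23 °C, and 2 and 1 in the double mutant. With 9.81%, 4.88%, 6.38%, 4.39%, 11.7% and 9.42% of all features called higher in the same order, these counts are near the background. The genes were rrp6 in the rrp6Δ-labelled libraries, air1, a zinc knuckle protein of the complex that adds short polyA tails, in dis3-4 at 23 °C, at 0.89 (SE 0.22, adjusted p = 0.037), and in the double mutant, at 1.07 (SE 0.22, adjusted p = 0.0078) at 30 °C, and cid14, the polyA polymerase of that complex, in the double mutant at 30 °C, at 1.67 (SE 0.41, adjusted p = 0.019). By limma 0 of these genes were called lower.

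The shift of the temperature-sensitive strains from 23 °C to 1 h at 30 °C gave 0 snoRNAs called in dis3-4 and 0 in the double mutant, by limma, where 0.0% of all features were called. At an unadjusted p under 0.05 there were 4 and 2 of 39. In a test of whether the shift differed between the double mutant and dis3-4, 0 were called and 2 had an unadjusted p under 0.05. The double mutant at 30 °C against rrp6-cat also gave 0, with 1 at an unadjusted p under 0.05, where 1.12% of all features were called. The 15 long snoRNAs called in all mutants had a median log2 difference of -0.02 in that comparison, from -0.93 to 0.78, and of 0.18 between dis3-4 at 30 °C and at 23 °C.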

How the data were processed

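Per the submitters' processing notes, the tools were TopHat2 2.1.0, Bowtie2, Cufflinks 2.2.1, Cuffnorm and Cuffdiff with build ASM294v2. The authors deposited FPKM for 7027 features and 14 polyA libraries. The sources used here do not give the annotation, the library scaling or the use of strand in counting. The Cuffdiff table and the 3′-ligated coverage, deposited by the authors as signal, were not used.

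All 14 libraries entered 1 model of 7 group means on log2(FPKM + 1) in limma 3.58.1 (R 4.3.3), with an intensity trend, two-sided moderated tests and Benjamini-Hochberg adjustment over the 6083 features with a mean of at least 1 FPKM, and a call at an adjusted p under 0.05. The fit was tested on simulated data. This log2 scale understates fold changes of low features, and a fitted difference from a group listed at 0 depends on the 1 FPKM added and is no bound. Features were matched by ID to RefSeq ASM294v3 for names, lengths and sequences. Fragments were recovered as FPKM times length divided by the step of each library. The 95% intervals cover counting error only. The floor of 3 fragments covers that of the group at 0. A fold given as at least takes the fragments of the higher group as counted. FPKM times kilobases gives depth-scaled fragments.

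The members, the gene lists and the tests were chosen with earlier results of these data known. Values in each library are given for called snoRNAs, up to 8 a response class by mean FPKM, and for the 6 uncalled ones with the highest mean.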

Additional observations from a re-analysis of the deposited data

How the results depend on the processing

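Every one of the 131 called results (a snoRNA in a comparison) kept its direction under each alternative. The numbers that kept their call were 123 with 0.1 FPKM added, 120 with 10, 105 with 100, 93 without the filter, 131 with a filter at a mean of 5 FPKM, 128 with median-ratio size factors, 124 with quantile normalization, 107 with library weights and 39 when only the groups compared were fitted. Adding 100 FPKM, library weights and summed loci were chosen after seeing the data. With only the groups compared, leaving few residual degrees of freedom, the snoRNAs called against wild type were 9 in the libraries labelled rrp6Δ, 0 in rrp6-cat, 5 in dis3-4 at 30 °C, 2 at 23 °C, 10 in the double mutant at 30 °C and 7 at 23 °C. That setting gave 0 for the libraries labelled rrp6Δ against rrp6-cat, 2 and 5 for these and for rrp6-cat against dis3-4 at 30 °C, and 1 for the double mutant against rrp6-cat. Without the filter, the counts were 12 in rrp6-cat against wild type, 0 between the rrp6 mutants, and 2, 0 and 1 in the libraries labelled rrp6Δ, in rrp6-cat and in the double mutant against dis3-4 at 30 °C. Quantile normalization gave 5 between the rrp6 mutants. For the double mutant against dis3-4 at 30 °C, adding 10 or 100 FPKM gave 0 and library weights gave 4, and for rrp6-cat against dis3-4 adding 100 FPKM gave 1. Members called lower were snR91 in the double mutant at 30 °C against wild type (1 of the 10) and snoR39a in the double mutant against rrp6-cat (the 1 there) with only the groups compared, and snR92 in the double mutant against dis3-4 (1 of the 4) with library weights. The cause of these shifts was not tested. Calls over all features also moved with the setting. In rrp6-cat against wild type, 205 of 7027 features were called higher without the filter, where the main fit had 297 of 6083. Between the rrp6 mutants, quantile normalization called 112 of 6083 higher in the rrp6Δ-labelled libraries, where the main fit had 79. The shares under the other settings are not given here. These counts therefore do not separate a change in the snoRNAs from one in the whole fit.

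Leaving out each library in turn, the counts against wild type ran from 18 to 26 in the libraries labelled rrp6Δ, 11 to 23 in rrp6-cat, 11 to 17 and 10 to 18 in dis3-4 at 30 °C and 23 °C, and 12 to 24 and 13 to 23 in the double mutant. Between the rrp6 mutants they ran from 0 to 5. Against dis3-4 at 30 °C they ran from 2 to 4 in the libraries labelled rrp6Δ, 0 to 2 in rrp6-cat, the 2 being lower (snR30 and snR95, without rrp6-cat replicate 2), and 0 to 1 in the double mutant, and for the double mutant against rrp6-cat from 0 to 2. In these fits a group left with 1 library is assumed to vary like the others. The numbers called in every such fit were 17 of 25, 11 of 20, 11 of 16, 10 of 16, 12 of 20 and 13 of 20 against wild type, in the same order.

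With the replicate block the counts were 25, 22, 17, 16, 23 and 22 against wild type, in the same order, 2 between the rrp6 mutants, 8, 3 and 2 against dis3-4 at 30 °C, and 0 in the other 4 comparisons, and all 131 calls were kept. Features called higher with the block also rose, from 597 to 689 of 6083 in the rrp6Δ-labelled libraries and from 297 to 364 in rrp6-cat. The labels do not say whether the shared replicate numbers pair the libraries. Over 21 pairs of groups the correlation of same-numbered deviations ran from -0.15 to 0.31, with a median of 0.03, and 5 were over 0.1. These values do not decide whether some groups share a pairing. On the log2 scale, median-ratio size factors moved the median of all features by up to 0.24 and quantile normalization by up to 0.37.

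Many group values of the short snoRNAs rest on fewer than 10 fragments, which limits their precision.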
